A study of Mus musculus with 8 samples.

Results

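The 39 genes described here are cyclins, cyclin-dependent kinases, kinase inhibitors, Rb1 and E2f1, and genes of DNA replication and mitosis, and they were picked by symbol from the 24346 gene symbols measured in each library. RNA was sequenced from live stromal cells sorted from whole colons (large intestine) of 8 mice aged 12 weeks, gated as Podoplanin+ CD45- CD31- EpCAM- 7AAD-. The WT group was 4 mice with the genotype Il10ra flox/flox. The cKO group was 4 mice with the genotype Pdgfra cre; Il10ra flox/flox, so both groups carry floxed alleles of the interleukin-10 receptor chain and differ by the Cre recombinase. Pdgfra, a fibroblast receptor gene, drives the Cre, whereas the gate used podoplanin. Each library is 1 mouse, and the series compared the groups to ask what this receptor does in fibroblasts.

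Cells pass from rest into division when D-type cyclins with Cdk4 or Cdk6, and then E-type cyclins with Cdk2, phosphorylate the retinoblastoma protein and free the E2F factors. E2F factors then switch on genes that load the Mcm helicase, make deoxynucleotides and copy DNA, and cyclin A and B with Cdk1 drive the cell through G2 into mitosis. Inhibitors of the Cip/Kip family (Cdkn1a, Cdkn1b, Cdkn1c) and of the Ink4 family (Cdkn2a, Cdkn2b, Cdkn2c) hold these kinases back. Genes of G2 and mitosis are kept silent in resting cells through an element called the cell cycle homology region and are activated through CCAAT boxes, which bind the factor NF-Y. Fibroblasts of the adult gut divide rarely, in contrast to the crypt epithelium beside them.

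The promoters of 4 members are shown because they carry the letters by which S-phase and mitotic genes are usually recognised, and because the levels of these classes differed widely in the libraries. They are RefSeq promoter sequences on GRCm38.p6, all read 5′ to 3′ on the minus strand, the strand of the gene, and each ends before the outermost annotated start. Capitals mark E2F letters (TTTGGCGC, TTTCCCGC, TTTGCCGC or TTTCGCGC), the cell cycle homology letters TTTGAA and CCAAT, each on either strand. Hits may overlap: the first capital run of Mcm6 holds an E2F hit on each strand. Mcm6, at chr1:128359706-128359835, stands for the replication genes. Cdk1, at chr10:69352939-69353132, holds letters of all 3 kinds, and its window leaves out the 26 bases next to the RefSeq start. Top2a, at chr11:99024190-99024424, and Mki67, at chr7:135716380-135716579, stand for the mitotic genes.
Mcm6: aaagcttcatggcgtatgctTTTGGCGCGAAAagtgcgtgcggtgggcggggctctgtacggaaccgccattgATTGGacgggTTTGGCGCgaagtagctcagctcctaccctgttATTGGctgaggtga
Cdk1: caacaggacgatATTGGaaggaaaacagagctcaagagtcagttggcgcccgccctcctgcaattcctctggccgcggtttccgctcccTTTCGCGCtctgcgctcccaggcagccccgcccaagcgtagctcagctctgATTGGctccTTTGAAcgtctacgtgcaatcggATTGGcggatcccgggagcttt
Top2a: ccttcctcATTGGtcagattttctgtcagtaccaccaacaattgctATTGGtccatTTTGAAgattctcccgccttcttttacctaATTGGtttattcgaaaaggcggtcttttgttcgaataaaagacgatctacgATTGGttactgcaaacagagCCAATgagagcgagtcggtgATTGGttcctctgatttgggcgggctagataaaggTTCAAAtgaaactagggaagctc
Mki67: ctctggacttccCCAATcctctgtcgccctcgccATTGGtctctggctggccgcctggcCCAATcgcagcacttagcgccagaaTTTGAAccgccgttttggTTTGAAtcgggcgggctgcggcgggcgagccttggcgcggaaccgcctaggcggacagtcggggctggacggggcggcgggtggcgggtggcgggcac

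Windows of 300 bases, from 250 before to 50 after each RefSeq start, were found for 30 of the 39 members (35 promoters). Not matched were Ccna2, Ccnd1, Ccnd2, Ccne2, Ccny, Cdkn1c, Rb1, Mcm4 and Aurkb. E2F letters occurred in 20% of member promoters and in 2.26% of all 32851 promoters of that length. CCAAT occurred in 65.7% against 37.4%, TTTGAA in 28.6% against 17.9%, and both together in 25.7% against 6.95%. Among the 7 promoters of mitotic members, 6 held both CCAAT and TTTGAA, and none held E2F letters. Among the 10 promoters of replication members, 4 held E2F letters and 9 held CCAAT. A match is a description of these letters and not a binding site. The members are genes long known for these elements, so the shares describe the choice of genes and not the libraries.

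The libraries had relative depths of 0.868 to 1.095, at an estimated median of 17600000 fragments (quartiles 14600000 and 17700000 over 73 single-transcript genes). Between 15815 and 16323 genes had an FPKM (fragments scaled by transcript length and library size) above 0, and log2 values correlated between libraries at 0.965 to 0.9895. Of the genes behind the gate and the Cre driver, Pdpn ran from 84.8 to 94.7 FPKM, Pdgfra from 126 to 167, Ptprc from 1.99 to 4.15 and Pecam1 from 0.594 to 2.37. Epcam ran from 1.27 to 11.6 in 7 libraries and was 34.7 in cKO 1. The 9 fibroblast markers, led by Dcn, Col3a1 and Col1a1, summed to 17830 to 21720 FPKM. Il10ra was at 0.842, 0.665, 0.614 and 0.403 FPKM in WT 1 to 4 and at 0.439, 0.273, 0.633 and 0.636 in cKO 1 to 4. That value sums over the whole gene and does not check the genotype labels.

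Markers of other cells moved with single libraries. The 20 epithelium markers, led by Guca2a, Car1 and Krt8, summed to 160, 123, 73.4 and 155 FPKM in WT 1 to 4 and to 1291, 590, 158 and 59.7 in cKO 1 to 4. None of them was at 0 in all libraries, and all 20 had a log2 difference above 0. The crypt-base markers (7 genes, led by Smoc2, Sox9 and Cdca7) summed to 74.5 to 101 FPKM in WT and 69.6 to 111 in cKO. The 14 myeloid markers, led by Lyz2, Laptm5 and Tyrobp, summed to 79.1 to 107 in WT, and to 177 in cKO 1 against 84.7 to 93.5 in the other cKO libraries. Lymphoid and plasma-cell markers (Xbp1, Jchain, Cd79a) summed to 268 to 291 and 243 to 373, and germinal-centre markers (S1pr2, Bcl6, Mef2b) to 47.8 to 53.8 and 51.5 to 63.4. Of the 10 blood-endothelium markers (led by Tek, Plvap and Kdr), Tek made up most of the sum and was at 85.6 to 93.1 in WT and 69.0 to 85.0 in cKO. The other 9 had higher means in cKO, such as Plvap (3.57 and 7.07 FPKM), Esam (0.812 and 1.71) and Pecam1 (0.803 and 1.54), and none of the 10 passed in limma (smallest adjusted p = 0.897). The sums were 95 to 99.3 in WT and 92.5 to 96.8 in cKO. Lymphatic-endothelium markers (Ccl21a, Lyve1, Mmrn1) summed to 0.720 to 5.51 in WT and 6.23 to 15.4 in cKO, without overlap. Ccl21a made up most of each cKO sum, at 4.81 to 11.9 in cKO and 3.3e-04, 0.0017, 4.49 and 6.1e-04 in WT 1 to 4. Of the other genes, all with means under 1 FPKM, Lyve1, Prox1 and Stab2 overlapped between groups. Mmrn1, Flt4 and Reln did not overlap and were higher in cKO. Muscle and pericyte markers (Acta2, Tagln, Des) summed to 56.3 to 66.1 and 49.5 to 91.0, and markers of glia and interstitial cells of Cajal (Ano1, Kit, S100b) to 3.64 to 4.18 and 3.49 to 6.71. No marker of any list was at 0 in all 8 libraries. The part of these other cells in the levels below was not tested.

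No member passed the test between cKO and WT. Of the 39, 33 had a mean of at least 1 FPKM over the 8 libraries and were tested in limma on log2(FPKM + 1). None had a Benjamini-Hochberg adjusted p under 0.05, against 1 of 11506 genes (0.00869%) in the series. At an unadjusted p under 0.05, none had a higher and 3 had a lower mean in cKO, against 2.37% and 3.03% of all tested genes. These 3 were Ccny, Ccne1 and Cenpa, and they were also the only tested members whose groups did not overlap, all lower in cKO. Over all tested genes, 1.36% lay above and 1.9% below without overlap. The members were chosen with earlier results of these data known, so their choice may not be independent of these differences. Without WT 4, 5 members did not overlap, Mcm6 and Cdkn2c being added, all lower in cKO, against 3.23% of all tested genes above and 4.08% below. With a minimum of 5 FPKM, which leaves out Ccne1 and Cenpa, only Ccny remained, against 1.16% and 2.13%. The 6 members under 1 FPKM were Ccne2, Cdk1, Cdkn2a, Plk1, Aurkb and Mki67. In limma without a filter (18065 genes, 0.00554% called) none of these 6 was called either.

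The intervals show what differences the data leave room for. Differences of tested members ran from -0.42 to 0.35 on the log2(FPKM + 1) scale, with a median of 0.01 against -0.01 over all tested genes. The mean of log2(FPKM + 1) was higher in cKO for 19 and lower for 14, but quantile normalization turned this split to 14 and 19. On this scale the 95% interval lay within 0.5 log2 units of 0 on both sides for 28 of 33 members, and within 1 for all 33. These are not bounds on fold changes, because the added 1 understates changes of low genes. With a pseudocount of 0.1, Cenpa and Birc5, the ends of the range, were at -0.57 and 0.60. It was narrowest for Cdk4 (-0.19 to 0.03) and widest for Ube2c (-0.65 to 0.65). The SD between mice was a median of 12.3% of the mean in each group. By role, 3 of 8 tested cyclins had a higher and 5 a lower mean in cKO (median log2 difference -0.05), and 2 of 3 kinases had a higher mean (0.09). Of 5 tested inhibitors 4 had a higher mean (0.06), of 10 replication members 6 (0.01) and of 5 tested mitotic members 3 (0.02), while Rb1 was higher and E2f1 lower. No role held a called gene. Counts of higher and lower means, here and for the gene lists, are of log2(FPKM + 1), on which Ube2c was lower by 0.003 although its mean FPKM was higher in cKO.

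**Figure D1:**
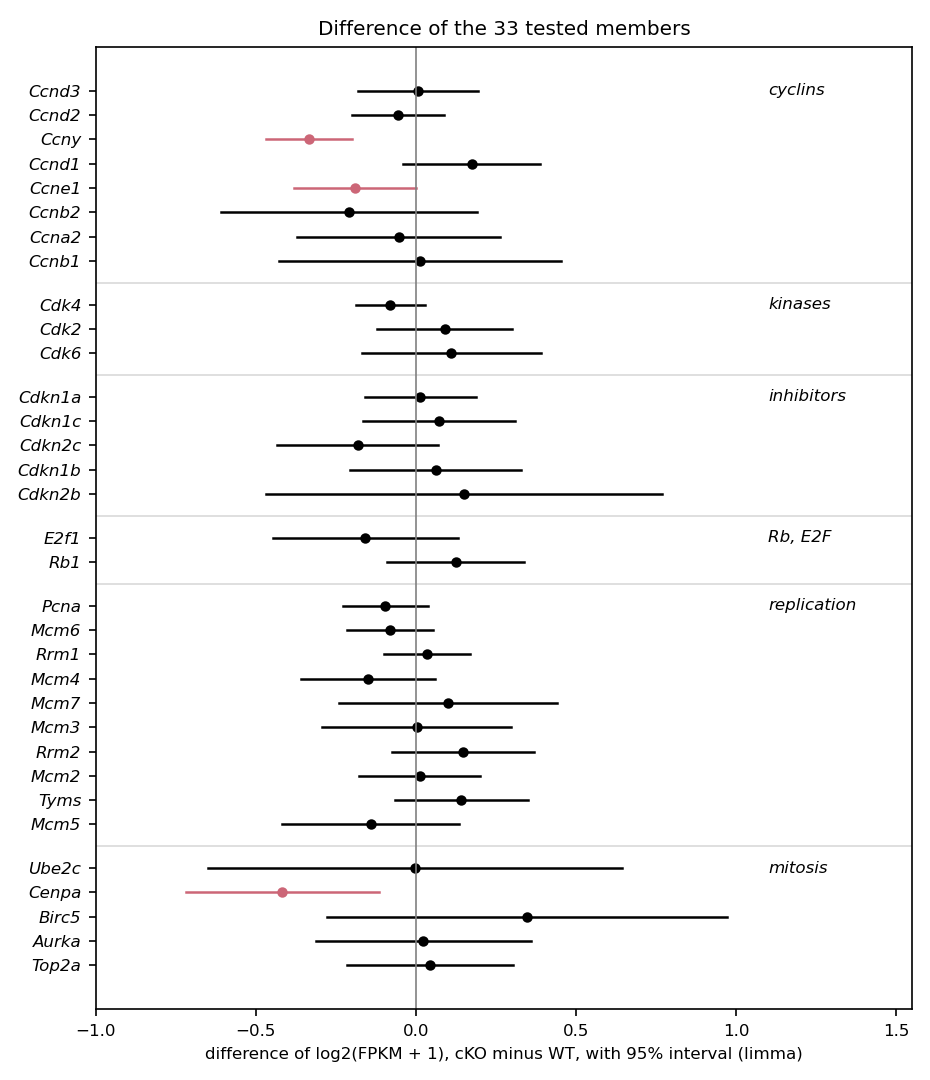
Difference in log2(FPKM + 1), cKO minus WT, of the 33 tested members with its 95% interval from limma, by role and, within a role, from the highest to the lowest level. The 3 red members, Ccny, Ccne1 and Cenpa, had groups that did not overlap, and no member passed the adjusted threshold.

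The levels themselves were uneven. In FPKM, which is per length, the members' means ran from 0.0121 for Cdkn2a to 218 for Cdkn1a, and the median of all tested genes was 9.66. Only 4 members had a mean of at least 50 FPKM: Cdkn1a, Ccnd3, Cdk4 and Pcna, which ranked at percentiles 96.8, 93.9, 92.2 and 90.2 of the tested genes. In contrast, 24 of 39 members had a mean under 5, among them all 8 mitotic members. The other 16 of these 24 came from every other role, among them Ccne1, Cdk6, Cdkn1b, Rb1, Mcm2 and Tyms. In bulk RNA, fewer cells of a type and less RNA per cell cannot be told apart, so a low level does not say how many cells were dividing.

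**Figure D2:**
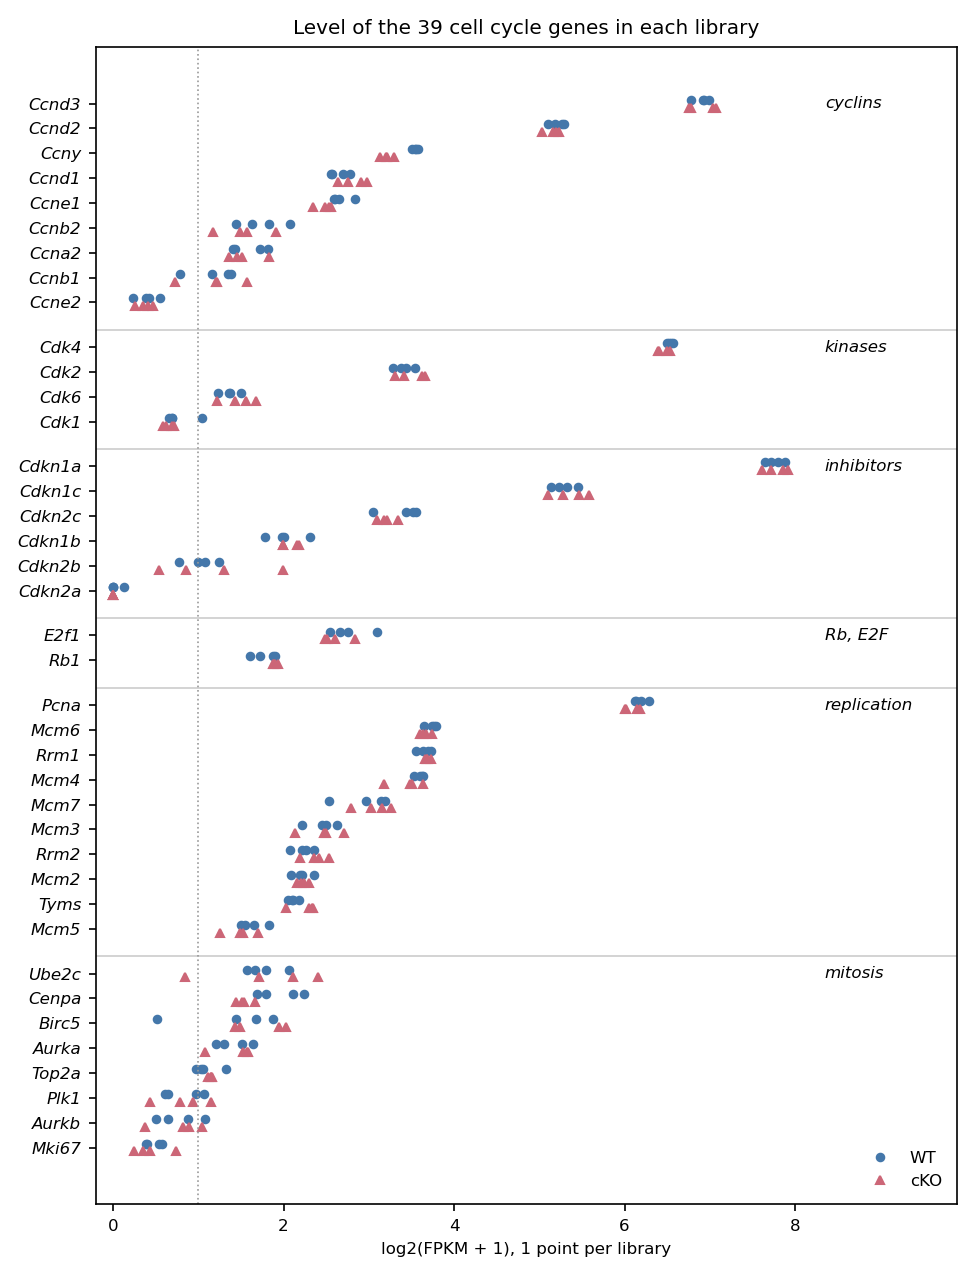
Level of each of the 39 members as log2(FPKM + 1), 1 point per library (circles, 4 WT; triangles, 4 cKO), by role. The dotted line marks 1 FPKM: Cdkn1a, Ccnd3, Cdk4 and Pcna lie far to the right, the mitotic members lie near the line, and the groups overlap for nearly every gene.

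Among the cyclins, Ccny had the smallest p. It encodes cyclin Y, a membrane-bound cyclin that activates Cdk14 and so promotes phosphorylation of the Wnt co-receptor Lrp6 in mitosis, and lies on chromosome 18 (GRCm38, 9312304 to 9450154, minus strand). Its level was 10.9, 10.7, 10.4 and 10.7 FPKM in WT 1 to 4 and 7.78, 8.26, 8.22 and 8.83 in cKO 1 to 4. Every cKO library lay below every WT library, and the spread within each group was small. The means were 10.7 ± 0.230 and 8.27 ± 0.433 (SD, n = 4 each), a difference of -0.33 in log2(FPKM + 1) (SE 0.06, 95% interval -0.47 to -0.20). It ranked 5th of 11506 by p but failed the correction (limma, adjusted p = 0.57, and 0.354 to 1 over 20 settings). Its log2 difference lay between -0.37 and -0.30 in those settings, with and without each library. Its annotated exons overlap no other gene.

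For the known partners and the paralog of Ccny the groups overlapped. The kinase Cdk14 had means of 9.97 ± 2.47 FPKM in WT and 11.3 ± 1.62 in cKO, the kinase Cdk16 69.1 ± 2.12 and 67.7 ± 3.75, and the paralog Ccnyl1 3.97 ± 0.698 and 4.21 ± 1.13 (SD, n = 4 each). None passed the test in limma (adjusted p = 0.931, 0.9746 and 0.985). Cdk8, Cdk14 and Cdk17 had the smallest p of the 18 tested genes in a list of 20 for Ccny's partners and other cyclins and kinases. Cdk8, a kinase of the Mediator complex, had means of 3.48 ± 0.819 and 4.41 ± 0.898, and Cdk17, a relative of Cdk16, 10.9 ± 0.761 and 10.2 ± 1.04 (adjusted p = 0.897 and 0.937). Of the 18, 9 had a higher and 9 a lower mean in cKO, and none was called in limma, with none at an unadjusted p under 0.05.

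The E-type cyclins, which with Cdk2 commit the cell to S phase, were low. Ccne1 (chromosome 7, 38097984 to 38107534, minus strand) was at 6.13, 5.06, 5.27 and 5.05 FPKM in WT 1 to 4 and at 4.88, 4.78, 4.07 and 4.59 in cKO 1 to 4. The groups did not overlap, but WT 4 and cKO 1 lay close together. Its means were 5.38 ± 0.512 and 4.58 ± 0.362 (SD, n = 4 each), and the log2 difference of -0.19 (SE 0.09) failed the correction (limma, adjusted p = 0.897, and 0.711 to 1 over 19 settings). Its unadjusted p was under 0.05 in 7 of those 19. Ccne2 was at 0.173, 0.310, 0.339 and 0.469 FPKM in WT and 0.329, 0.281, 0.193 and 0.380 in cKO, values that stand for about 9.14 to 25.4 fragments. Its groups overlapped almost wholly.

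The D-type cyclins, which respond to growth signals, differed widely in level. Ccnd3 was the most abundant cyclin, at 109, 120, 121 and 126 FPKM in WT 1 to 4 and 107, 109, 131 and 134 in cKO 1 to 4. The cKO libraries lay on both sides of the WT ones. Its log2 difference was 0.01 (SE 0.08; limma, adjusted p = 0.996). A pseudogene named Ccnd3-ps and the opposite-strand gene Bysl can share its fragments. Ccnd2 had means of 36.1 ± 2.19 and 34.7 ± 2.16. Ccnd1 was at 4.87, 5.88, 4.91 and 5.47 FPKM in WT 1 to 4 and 6.52, 6.90, 5.77 and 5.23 in cKO 1 to 4. Here 2 cKO libraries, cKO 1 and cKO 2, lay above all WT libraries, and these 2 also had the highest epithelium sums. The library cKO 1 was also the highest for the myeloid, lymphoid, lymphatic, muscle and glia sums. The log2 difference of Ccnd1, 0.17 (SE 0.10), did not pass (limma, adjusted p = 0.897), and with the epithelium mean as a covariate it was 0.10 (adjusted p = 0.915).

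Cyclins A and B, which act from S phase to mitosis, were near the filter. Ccnb2 had means of 2.40 ± 0.641 FPKM in WT and 1.95 ± 0.626 in cKO, Ccna2 2.04 ± 0.439 and 1.93 ± 0.433, and Ccnb1 1.28 ± 0.404 and 1.32 ± 0.538 (SD, n = 4 each). Their spread of 21.5% to 40.8% of the mean was larger than any difference between groups. Ccnb1 and Ccnb2 each have a named pseudogene, and Ccna2 overlaps Exosc9 on the opposite strand, so their values are uncertain.

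**Figure D3:**
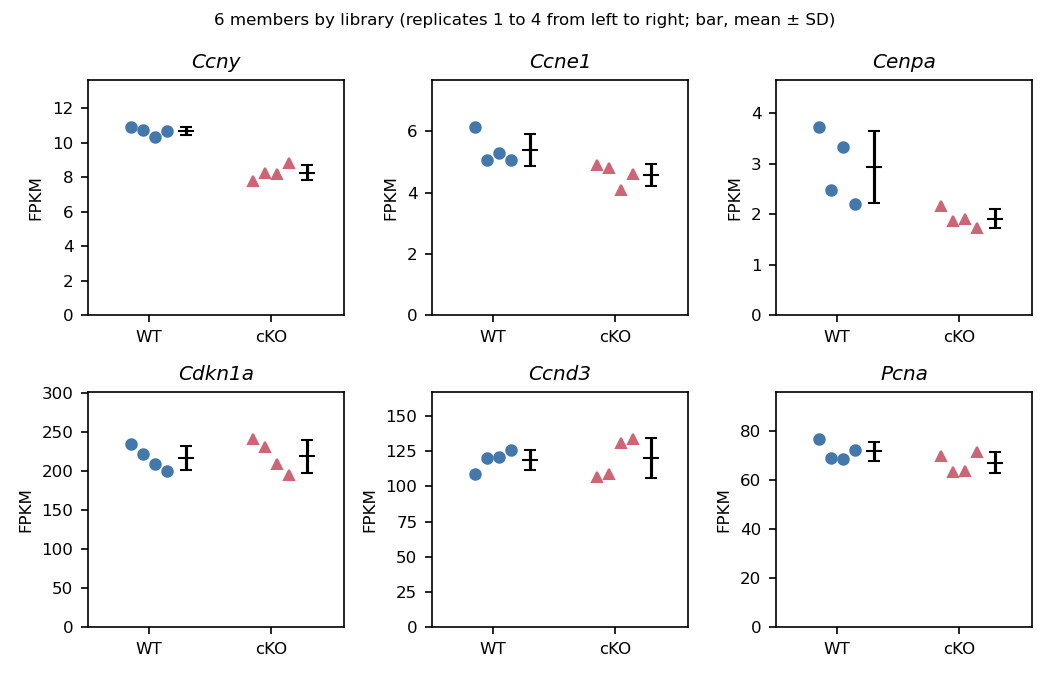
FPKM of 6 members by library (circles, WT 1 to 4; triangles, cKO 1 to 4, from left to right) with the mean and SD of each group beside the points. Ccny, Ccne1 and Cenpa lie lower in every cKO library, whereas the abundant Cdkn1a, Ccnd3 and Pcna overlap between groups.

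Of the kinases, Cdk4, the partner of the D cyclins, was the only abundant one. It was at 92.7, 89.6, 94.2 and 91.2 FPKM in WT 1 to 4 and 89.5, 83.0, 91.5 and 83.8 in cKO 1 to 4. The library cKO 3 lay within the WT range, cKO 1 just under it, and cKO 2 and cKO 4 clearly below. The log2 difference was -0.08 (SE 0.05; limma, adjusted p = 0.902). Tspan31 overlaps Cdk4 on the opposite strand.

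Cdk2, the partner of cyclins E and A, was at 9.42, 8.75, 10.7 and 9.79 FPKM in WT and 11.6, 8.90, 11.3 and 9.66 in cKO. Cdk6, the other D-cyclin kinase, was at 1.58, 1.35, 1.83 and 1.57 in WT and 1.96, 1.33, 2.21 and 1.70 in cKO. For both, cKO 1 and cKO 3 were the high libraries and cKO 2 and WT 2 the low ones of their groups. Their log2 differences were 0.09 (SE 0.09) and 0.11 (SE 0.13), with adjusted p of 0.95 and 0.955 in limma. Cdk1, the mitotic kinase, was under the filter at 0.613, 0.612, 1.06 and 0.578 FPKM in WT and 0.641, 0.616, 0.541 and 0.505 in cKO. Only WT 3 stood away from the rest.

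Among the inhibitors, Cdkn1a, which encodes p21 and is induced by p53, was the highest of all 39 members. Its level was 235.4, 222, 209 and 200 FPKM in WT 1 to 4 and 241, 231, 209 and 195 in cKO 1 to 4. The groups covered nearly the same range, and the log2 difference was 0.01 (SE 0.08; limma, adjusted p = 0.994). It lies on chromosome 17 (29090976 to 29100727, plus strand). Cdkn1c, which encodes p57, was at 38.9, 34.3, 36.6 and 43.0 FPKM in WT and 43.3, 46.9, 33.5 and 37.9 in cKO. The log2 difference was 0.07 (SE 0.11; limma, adjusted p = 0.969). Its cKO libraries reached both above and below the WT range. Cdkn1b, which encodes p27, had means of 3.10 ± 0.642 and 3.24 ± 0.289.

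The Ink4 inhibitors of Cdk4 and Cdk6 were lower. Cdkn2c (p18) was at 10.7, 10.4, 9.83 and 7.30 FPKM in WT 1 to 4 and 8.26, 8.07, 9.14 and 7.52 in cKO 1 to 4. The cKO libraries lay below the other WT libraries, and only WT 4 was lower than they were. Its log2 difference was -0.18 (SE 0.11; limma, adjusted p = 0.905). Cdkn2b (p15) was at 1.37, 0.998, 0.714 and 1.11 FPKM in WT and 2.99, 1.46, 0.458 and 0.811 in cKO. The high value was in cKO 1, the library with the highest epithelium sum and also the highest myeloid, lymphoid, lymphatic, muscle and glia sums. Without cKO 1 the log2 difference of Cdkn2b went from 0.15 to -0.12. The part of any of these cells in it was not tested. Cdkn2a, which encodes p16 and Arf and marks senescent cells, was listed at 0.0965 FPKM in WT 2 and at 0 in the other 7 libraries. The value in WT 2 stands for about 1.32 fragments.

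Genes that p53 induces or that mark arrest, a list of 23 that all passed the filter, had 12 higher and 11 lower means in cKO. None was called in limma, and none had an unadjusted p under 0.05. The smallest p belonged to Mdm2, the ubiquitin ligase of p53 (34.0 ± 2.84 FPKM in WT and 30.9 ± 2.14 in cKO), Fas, a death receptor (23.7 ± 1.76 and 21.9 ± 1.51), and Ccng1, a cyclin induced by p53 (28.7 ± 0.359 and 27.3 ± 1.37). All 3 means were lower in cKO by 0.07 to 0.13 log2 units, and all 3 pairs of groups overlapped.

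E2f1, the activating E2F factor, was at 5.73, 4.84, 5.31 and 7.59 FPKM in WT 1 to 4 and 4.68, 4.597, 5.06 and 6.13 in cKO 1 to 4. Replicate 4 was the highest of each group, and the ranges overlapped. Rb1, the retinoblastoma protein that holds it, was at 2.296, 2.04, 2.68 and 2.74 in WT and 2.66, 2.83, 2.75 and 2.71 in cKO. The log2 differences of E2f1 (-0.16, SE 0.13) and Rb1 (0.12, SE 0.10) did not pass (limma, adjusted p = 0.929 each). Rb1 overlaps Rcbtb2 and Lpar6 on the opposite strand.

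Other genes of the Rb and E2F pathway and of checkpoints (27 of 37 tested) had 14 higher and 13 lower means in cKO, with none called and none at an unadjusted p under 0.05 in limma. E2f5, a repressive E2F factor, had means of 9.23 ± 0.111 FPKM in WT and 8.22 ± 0.694 in cKO, with groups that did not overlap. Cks1b, a subunit that binds Cdks, had means of 55.6 ± 6.33 and 50.1 ± 2.84, and Myc, a factor that drives entry into the cycle, 176 ± 16.5 and 161 ± 8.16. The adjusted p of each of these 3 was 0.897. E2f4, the E2F factor of resting cells, was at 20.4 ± 1.27 and 20.8 ± 0.786 FPKM and Rbl2, its pocket-protein partner, at 16.7 ± 0.487 and 15.2 ± 1.93. These 2 were named after their values were seen, as genes known for their role in resting cells.

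All 10 replication members passed the filter. Pcna, the sliding clamp of DNA polymerases, was at 76.8, 69.0, 68.9 and 72.4 FPKM in WT 1 to 4 and 69.8, 63.3, 63.8 and 71.7 in cKO 1 to 4. The libraries cKO 2 and cKO 3 lay below all WT libraries and the other cKO libraries did not. The log2 difference was -0.10 (SE 0.06; limma, adjusted p = 0.914). Pcna has 2 named pseudogenes, so part of its fragments may be assigned among copies.

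Among the Mcm helicase subunits, Mcm4 was at 11.1, 10.6, 11.4 and 11.4 FPKM in WT and 8.06, 10.3, 10.2 and 11.4 in cKO. The low value was in cKO 1. Its log2 difference was -0.15 (SE 0.09; limma, adjusted p = 0.914). Mcm6 had means of 12.4 ± 0.553 and 11.6 ± 0.526, Mcm7 6.89 ± 1.504 and 7.39 ± 1.14, Mcm3 4.49 ± 0.636 and 4.53 ± 0.880, Mcm2 3.65 ± 0.353 and 3.68 ± 0.198, and Mcm5 2.12 ± 0.316 and 1.83 ± 0.356. The 6 subunits form 1 ring in equal numbers, yet their transcript levels differed by several fold, with Mcm6 highest and Mcm5 lowest. Mcm7 overlaps Cops6 and Ap4m1 on the opposite strand and hosts Mir25 and Mir93.

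The enzymes of nucleotide supply lay between these. Tyms, thymidylate synthase, was at 3.28, 3.15, 3.31 and 3.55 FPKM in WT and 3.90, 3.10, 4.10 and 4.03 in cKO. All cKO libraries except cKO 2 lay above the WT libraries, and the log2 difference of 0.14 (SE 0.09) did not pass (limma, adjusted p = 0.92). A pseudogene named Tyms-ps makes its value uncertain. The ribonucleotide reductase subunits had means of 11.6 ± 0.683 and 11.9 ± 0.239 FPKM for Rrm1, the large subunit, and 3.70 ± 0.378 and 4.21 ± 0.516 for Rrm2, the small subunit that is made in S phase.

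Of 44 other replication genes, 36 were tested, 19 with a higher and 17 with a lower mean in cKO. None was called in limma, and 1 had an unadjusted p under 0.05. That gene was Pold3, a subunit of DNA polymerase delta, at 8.999, 9.72, 8.92 and 9.01 FPKM in WT 1 to 4 and 7.11, 7.65, 7.99 and 8.34 in cKO 1 to 4. Its groups did not overlap, and the log2 difference was -0.21 (SE 0.07, adjusted p = 0.897). Uhrf1, which keeps DNA methylation through replication, had means of 1.38 ± 0.0887 and 1.03 ± 0.166, also without overlap. Orc6, of the origin recognition complex, had means of 9.58 ± 0.394 and 10.5 ± 0.637, with overlap (adjusted p = 0.897 for both).

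The mitotic members were the lowest group. Cenpa, the histone variant that marks centromeres (chromosome 5, 30666777 to 30674830, plus strand), was at 3.73, 2.48, 3.33 and 2.21 FPKM in WT 1 to 4 and 2.17, 1.86, 1.91 and 1.73 in cKO 1 to 4. The WT libraries were widely spread, and WT 4 lay just above cKO 1. The means were 2.94 ± 0.711 and 1.92 ± 0.186 (SD, n = 4 each), the log2 difference -0.42 (SE 0.13, 95% interval -0.72 to -0.12). It failed the correction (limma, adjusted p = 0.897, and 0.631 to 1 over 19 settings), and its unadjusted p was under 0.05 in all 19. Its exons overlap no other gene.

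The other tested mitotic members did not share Cenpa's separation. Birc5, which encodes survivin of the chromosomal passenger complex, was at 2.68, 1.71, 2.21 and 0.429 FPKM in WT and 3.10, 1.82, 2.85 and 1.69 in cKO. The low value was in WT 4, and the log2 difference was 0.35 (SE 0.28; limma, adjusted p = 0.929). Without WT 4 that difference was 0.06, and without WT 1 it was 0.51. Top2a, the topoisomerase whose promoter is shown above, was at 1.08, 1.05, 1.52 and 0.962 in WT and 1.22, 1.21, 1.17 and 1.23 in cKO. All 4 cKO values lay inside the WT range. Ube2c, the ubiquitin-conjugating enzyme of the anaphase-promoting complex, was at 2.16, 3.17, 1.97 and 2.47 in WT and 3.33, 0.796, 4.29 and 2.28 in cKO, the widest cKO spread of the tested mitotic members. Aurka, a spindle-pole kinase, had means of 1.69 ± 0.362 and 1.74 ± 0.424.

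Among the mitotic members, Mki67, Plk1 and Aurkb were under the filter. Mki67, which encodes the Ki-67 antigen, was at 0.495, 0.450, 0.318 and 0.311 FPKM in WT 1 to 4 and 0.669, 0.353, 0.281 and 0.185 in cKO 1 to 4. Plk1, a mitotic kinase, was at 0.570, 0.969, 1.09 and 0.530 in WT and 1.21, 0.923, 0.719 and 0.349 in cKO. Aurkb, the kinase of the passenger complex, was at 0.836, 0.570, 1.12 and 0.423 in WT and 1.06, 0.301, 0.848 and 0.764 in cKO. The cKO group spanned the whole WT range for Mki67 and Plk1, and cKO 1 was the highest cKO library for all 3 genes. These values stand for about 33 to 124 fragments for Mki67, 13.6 to 49.2 for Plk1 and 10.6 to 39.2 for Aurkb per library, so they were measured but not precisely.

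Most member transcripts of G2 and mitosis were lowest among the WT libraries in WT 4 and highest among the cKO libraries in cKO 1. Summed over the 8 mitotic members, the level was 13.7, 12.2, 13.0 and 8.65 FPKM in WT 1 to 4 and 14.8, 9.23, 13.9 and 9.33 in cKO 1 to 4. The library WT 4 was the lowest of its group for 7 of these 8 genes and cKO 1 the highest of its group for 6. With Cdk1, Ccna2, Ccnb1 and Ccnb2 added, a set of 12 put together after their values were seen, WT 4 was lowest for 10 and cKO 1 highest for 10. Summed replication members stayed within 125 to 137 FPKM in WT and 121 to 133 in cKO, and WT 4 was the highest WT library for 5 of those 10 genes. The epithelium sums of cKO 1 to 4 were 1291, 590, 158 and 59.7 FPKM. Between cKO 2 and cKO 3 the mitotic members went both ways. Ube2c (0.796 and 4.29 FPKM), Birc5, Aurkb and Cenpa were lower in cKO 2. Mki67, Plk1, Aurka and Top2a were lower in cKO 3. The library cKO 1 was also the highest for the myeloid, lymphoid, lymphatic, muscle and glia sums. The part of epithelium and of these other cells in the mitotic sums was not tested.

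**Figure D4:**
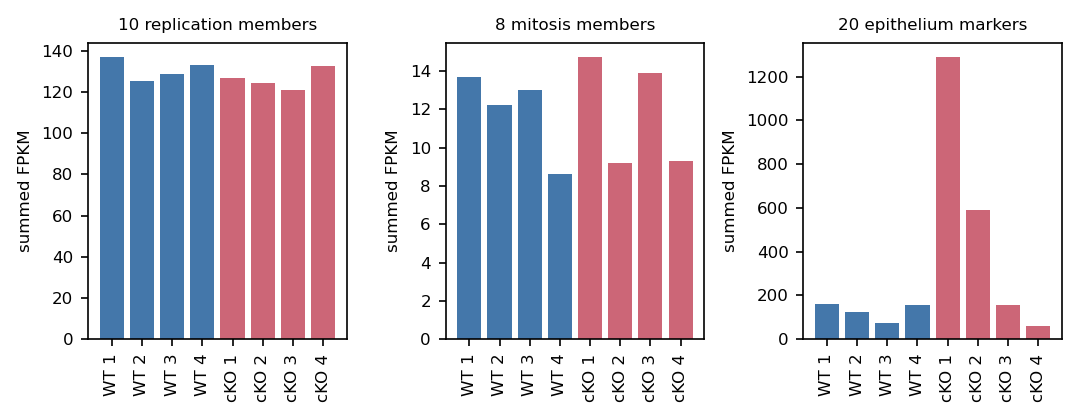
Summed FPKM by library of the 10 replication members, the 8 mitotic members and the 20 epithelium markers (blue, WT; red, cKO; each bar 1 library). Replication sums are nearly level, the mitotic sum is low in WT 4, cKO 2 and cKO 4, and the epithelium sum is high in cKO 1 and cKO 2.

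Of 50 other mitotic genes, 34 were under the filter. The 16 tested had 6 higher and 10 lower means in cKO, with a median log2 difference of -0.08 against -0.01 over all tested genes. None was called in limma, and 1 had an unadjusted p under 0.05. That gene was Pttg1, securin, which guards sister chromatids until anaphase, at 88.7, 82.4, 89.0 and 87.7 FPKM in WT 1 to 4 and 75.3, 81.4, 74.2 and 79.3 in cKO 1 to 4. Its groups did not overlap, and the log2 difference was -0.16 (SE 0.05, adjusted p = 0.897). Mad2l1, of the spindle checkpoint, had means of 2.16 ± 0.332 and 2.72 ± 0.354, and Ncapd2, a condensin subunit, 2.39 ± 0.345 and 2.04 ± 0.356, each with overlap.

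Across all 174 other cell cycle genes of these lists, 120 were tested. None was called in limma, and at an unadjusted p under 0.05 none was higher and 2 were lower in cKO, against 2.37% and 3.03% of all tested genes. Means were higher in cKO for 60 and lower for 60. Groups did not overlap for 4, all lower in cKO (E2f5, Pold3, Uhrf1 and Pttg1), beside 1.9% of all tested genes lower without overlap. These lists were also chosen with earlier results of these data known. Among genes under the filter, Ttk, a spindle checkpoint kinase named after its values were seen, was at 0.279, 0.185, 0.236 and 0.196 FPKM in WT and 0.0411, 0.104, 0.0790 and 0.0424 in cKO. Its groups did not overlap, at values near the floor whose fragments were not estimated. The share of genes under the filter without overlap was not counted. Ttk did not pass in limma without a filter (adjusted p = 0.721). Others under the filter with an unadjusted p under 0.05 in that fit went both ways, with overlapping groups. Ckap2l and Melk were higher in cKO (log2 differences 0.29 and 0.18), and Foxm1 and Hmmr were lower (-0.23 and -0.20). Each had an adjusted p of 0.914 in limma.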

How the data were processed

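The authors deposited 1 table of FPKM values per library, already normalized by gene length and by library size. The submitters' processing notes name mm10, TopHat2 2.1.1, Bowtie2 2.3.5.1, SAMtools 0.1.18, Cufflinks 2.2.1 and Cuffdiff. RNA was made into full-length SMART-Seq HT cDNA and Nextera XT libraries, per the labels' protocols. Not given in the sources used here were their settings and the gene annotation. Groups and replicate numbers come from the genotype labels and titles.

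Values were transformed to log2(FPKM + 1), which understates changes of low genes. Genes with a mean of at least 1 FPKM over 8 libraries (11506) went into a limma 3.58.1 fit (R 4.3.3; lmFit, then eBayes with trend, 1 factor), with Benjamini-Hochberg adjustment over all of them. The procedure was tested on simulated data. Intervals are 95% and from limma. With 4 against 4 libraries an exact permutation test has 70 arrangements and cannot go below a two-sided p of 0.0286. Fragments per library were estimated from whole-number steps between low values. Only 48.0% to 56.3% of ratios lay on such steps (tolerance 0.002 in log2), so no count model was used. Python 3.11.15, numpy 2.4.6, pandas 2.3.3 and matplotlib 3.10.9 were used for the rest.

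Positions are those of GENCODE on GRCm38. Exons of 15 members overlap another gene, 14 of them on the opposite strand, and 5 have a named pseudogene. Whether the counting used strand is not stated.

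The members and the gene lists were chosen with earlier results of these data known. Values by library are given for tested members with the 3 smallest unadjusted p or the highest mean of their role, or with groups that do not overlap, and for the 3 most abundant members of a role under the filter. Cdk16, Ccnyl1, E2f4, Rbl2, Ttk, Ckap2l, Melk, Foxm1 and Hmmr were named outside this rule, after their values were seen. Of each other list the 3 genes with the smallest unadjusted p are named, and of each marker list the 3 most abundant. Alternatives were pseudocounts of 0.1 and 0.25, no filter or a minimum of 5 FPKM, 3 scalings, other eBayes settings, array weights, an epithelium covariate, a replicate block, and leaving out each library.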

Additional observations from a re-analysis of the deposited data

Results flagged for a closer look

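In 5 of 98 groups of 4 libraries, over the members and the summed marker lists, 1 library stood away from the other 3 by more than Dixon's 95% critical value for the gap over the range, on the log2 scale. Chance flags about 1 group in 20. Cdk1 was at 1.06 FPKM in WT 3, against 0.578 to 0.613 in the other WT libraries. Cdkn2a was at 0.0965 FPKM in WT 2 and listed at 0 in the other WT libraries. Aurka was at 1.11 FPKM in cKO 4, against 1.87 to 2.01 in the other cKO libraries. The fibroblast markers summed to 20580 FPKM in WT 1, against 19620 to 19700 in the other WT libraries. The myeloid markers summed to 177 FPKM in cKO 1, against 84.7 to 93.5 in the other cKO libraries.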

How the results depend on the processing

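No member was called under any alternative run, and none of the 6 members below the filter under the alternatives run for them. The number of genes called in the series was 1 under every alternative with all 8 libraries, and 1 to 4 when 1 library was left out (3 without WT 3, 4 without cKO 1, 2 without cKO 2). Members whose groups did not overlap numbered 3, 3 to 5 without 1 library (5 without WT 4), and 1 with a minimum of 5 FPKM, which leaves fewer members tested. With the replicate number as a block, 1 gene and 0 members were called. Deviations from the group means correlated at 0.091, 0.034, 0.019 and 0.018 for same-numbered libraries, and WT 1 correlated best with cKO 2. Over all pairs of a WT and a cKO library these correlations ran from -0.123 to 0.131. Whether same-numbered libraries were handled together was not tested.

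Of 462 member values under alternatives, 44 changed sign, in 13 members with differences of -0.05 to 0.15 as reported, and 20 members never changed sign. With quantile normalization the differences were -0.0112 for Ccnb1, -0.0242 for Mcm2, -0.0257 for Mcm3, -4e-04 for Top2a and -0.0157 for Aurka. That of Ube2c was 0.0039 with median-of-ratios scaling, 0.0209 with a fixed sum and 0.0192 with the epithelium covariate. With that covariate they were -0.1631 for Ccnb1, -0.0661 for Cdkn1a, -0.0158 for Cdkn1c, -0.1941 for Cdkn2b, -0.0507 for Mcm3 and -0.0916 for Aurka. Leaving out 1 library gave -0.0462 to 0.0597 for Ccnd3, -0.1499 to 0.0209 for Ccna2, -0.1173 to 0.1636 for Ccnb1, -0.0337 to 0.0686 for Cdkn1a, -0.0183 to 0.1595 for Cdkn1b, -0.002 to 0.1561 for Cdkn1c, -0.1243 to 0.3597 for Cdkn2b, -0.0298 to 0.0584 for Mcm2, -0.082 to 0.1096 for Mcm3, -0.0412 to 0.1884 for Mcm7, -0.0461 to 0.1435 for Aurka and -0.2141 to 0.3048 for Ube2c. The cause of these changes was not tested. Depth limits low members: Ccne2 rests on about 9.14 to 25.4 fragments per library.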
